A study of Mus musculus with 6 samples.

Results

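Ribosome biogenesis factors are the proteins that transcribe, modify, cut and fold ribosomal RNA (rRNA) and load ribosomal proteins onto it, mostly in the nucleolus, without staying in the finished ribosome. A list of 40 such genes was followed through RNA-seq libraries of mouse long-term haematopoietic stem cells (LT-HSCs), out of 30409 genes with a value. The genes were listed by name under a rule that uses no measured value, although earlier results of these data were known, and all 40 were found by symbol. They fall into 6 roles: 5 abundant nucleolar proteins, 3 proteins of the box C/D small nucleolar ribonucleoprotein (snoRNP), 4 of the H/ACA snoRNP, 4 subunits of RNA polymerase I, 11 small subunit assembly factors and 13 large subunit assembly factors.

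The cells were sorted as Lineage−Sca1+cKit+CD34−Flk2− from bone marrow of C57BL/6 mice. One group was wild type at steady state, and another carried a Twist1 conditional knockout (cKO) at steady state. The other two groups were wild type and Twist1 cKO taken 12 days after irradiation. With a single library in each of the 4 groups, differences have no replicate check and the groups were not tested against each other. Twist1 is a transcription factor of the basic helix-loop-helix family. The Cre driver, the radiation dose and the age and number of mice are not given in the sources used here, and the irradiated ATAC-seq samples (2) were not analysed here.

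As background, RNA polymerase I copies the rRNA genes into a long precursor. Box C/D snoRNPs methylate that precursor and H/ACA snoRNPs convert chosen uridines to pseudouridine, each guided by a small nucleolar RNA (snoRNA), while assembly factors join and leave the small and large subunit precursors in order. Output of this pathway is known to be high in growing cells, and haematopoietic stem cells are known for low protein synthesis at rest.

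Values are FPKM (reads scaled for the length of the gene model and the size of the library), as made by the authors. Levels of different genes compare only as far as their model lengths hold. These lengths ran from 1109 bases (Nop10) to 11955 bases (Wdr12), and their fit to the transcripts present was not tested. Where 4 values follow a gene, they are the wild-type and cKO libraries at steady state and then the wild-type and cKO libraries after irradiation. Folds are ratios of FPKM. Their 95% intervals are exact binomial intervals from recovered reads and cover counting error only. Differences are on the scale of log2(FPKM + 1), which understates changes of low genes, and a gene was kept in a comparison if the higher of its 2 values reached 5 FPKM. Counts take the kept genes that were at least 1.5-fold apart on that scale. Reads recovered from the FPKM added up to 25100438, 22127527, 24743744 and 20349696 per library, of which the 40 genes held 157990, 155957, 404995 and 270910. The library sizes implied by the FPKM were 26031985, 25239648, 22146433 and 23450734, so the deposited scale was not that of these totals. The total lay above its implied size in irradiated wild type and below it in irradiated cKO.

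Several facts of the libraries move with the comparisons, and their part in the results below was not tested. Transcripts of the LT-HSC marker list added up to 881, 768, 287 and 383 FPKM, while the list medians were 11.7, 16.6, 0.360 and 0.583 FPKM. The highest after irradiation were Gfi1b in wild type (175 FPKM) and Ly6a in cKO (256 FPKM). Of the genes of this list kept, 9 of 10 were at least 1.5-fold lower after irradiation in wild type and 9 of 11 in cKO. Over all genes kept, 26.9% and 34.6% were lower. Hlf, a transcription factor of stem cells, had 17.4, 17.7, 0.0608 and 0.102 FPKM, so this defining marker was almost absent from both irradiated libraries. Transcripts of the antigens of the sorting gate also differed. Ly6a (Sca1) had 534, 362, 89.1 and 256 FPKM and Kit had 20.1, 27.6, 8.52 and 4.98. Cd34 had 18.4, 29.2, 0.155 and 0.322 FPKM and Flt3 (Flk2) had 6.26, 9.32, 0.519 and 1.32, although the gate excludes both proteins. Erythroid markers added up to 4089, 2688, 13820 and 16824 FPKM, neutrophil markers to 3195, 3832, 471 and 1454, macrophage markers to 2690, 1383, 1420 and 2753, B and plasma cell markers to 113294, 68884, 24376 and 58533, and T and NK cell markers to 374, 371, 87.5 and 145. None of these markers was at 0 except 1 B and plasma cell marker in the irradiated wild-type library. In such bulk samples, a different share of cells of a type and a different amount of RNA per cell cannot be told apart. Xist, the RNA that coats an inactive X chromosome, stood at 0.0171, 0.0155, 1.003 and 0.573 FPKM and the Y-linked Ddx3y had 10.2, 12.4, 0.0521 and 0.0164, so sex-linked transcripts divided the libraries as irradiation did and the 2 cannot be told apart. Twist1 had 6, 2, 5 and 0 reads (0.143, 0.0490, 0.140 and 0 FPKM), where 3 reads would have given 0.0792 FPKM in the last library, and the deleted part and the part measured are not given in the sources used here.

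Promoter letters are shown because the 40 genes were nearly all higher together after irradiation. RefSeq (GRCm38.p6) gave 39 promoters for 35 of the genes. Npm1, Fbl, Rrp12, Bop1 and Rrs1 had no entry. The 250 bases before each start were searched on both strands. The E-box CACGTG, the form bound by Myc and Max, was in 2 of 39 (5.13%), those of Nop2 and Utp18, against 6.02% of all 32851 promoters and 8.67% of the 7047 promoters of genes with at least 5 FPKM. The ETS core CCGGAAG was in 8 of 39 (20.5%), against 6.91% of all and 15.8% of those expressed. TCTCGCGA was in 3 of 39 (7.69%), those of Nop14, Nop58 and Tsr1, against 0.858% and 2.28%. CATATG, an E-box form bound by Twist proteins, and CGCATGCG, the core of the NRF1 motif, were in 0 of 39, against 3.46% and 1.55% of all promoters and 1.49% and 3.63% of those expressed. CCAAT was in 10 (25.6%, against 33.8% of all and 36.3% of those expressed) and TATAAA in 2 (5.13%, against 12.4% and 6.37%). These matches describe letters in a window and are not measured binding. The 5 promoters below are given 5′ to 3′ on the strand of the gene, with CACGTG and CCGGAAG (or its complement CTTCCGG) in capitals. Nhp2 (chr11:51619523-51619772, plus strand) is shown as the gene with the highest irradiation fold, Gar1 (chr3:129831397-129831646, minus strand) as the one at least 1.5-fold apart between genotypes in opposite directions under the 2 conditions on the deposited scale, and Tsr1 (chr11:74897830-74898079, plus strand) as the one with the smallest genotype difference after irradiation on that scale (−0.08; 0.37 after centring on all genes, then the largest in size of the 40). Nop2 (chr6:125131633-125131882, plus strand) and Utp18 (chr11:93885767-93886016, minus strand) are shown as the promoters with the Myc-type E-box, which lay 60 and 20 bases before their starts.
Nhp2: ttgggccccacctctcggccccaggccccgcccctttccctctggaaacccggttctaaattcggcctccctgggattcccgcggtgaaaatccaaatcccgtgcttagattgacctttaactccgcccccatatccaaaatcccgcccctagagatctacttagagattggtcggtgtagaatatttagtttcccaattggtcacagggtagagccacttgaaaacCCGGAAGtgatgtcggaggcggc
Gar1: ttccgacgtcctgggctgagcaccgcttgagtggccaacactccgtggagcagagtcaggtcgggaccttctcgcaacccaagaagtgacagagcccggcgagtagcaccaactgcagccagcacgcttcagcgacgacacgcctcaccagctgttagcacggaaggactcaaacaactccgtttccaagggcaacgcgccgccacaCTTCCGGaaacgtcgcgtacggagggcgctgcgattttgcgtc
Tsr1: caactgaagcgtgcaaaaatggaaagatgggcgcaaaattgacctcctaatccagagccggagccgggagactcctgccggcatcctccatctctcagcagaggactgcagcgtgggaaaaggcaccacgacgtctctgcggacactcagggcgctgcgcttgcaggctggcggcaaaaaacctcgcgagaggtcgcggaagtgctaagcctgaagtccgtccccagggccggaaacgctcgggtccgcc
Nop2: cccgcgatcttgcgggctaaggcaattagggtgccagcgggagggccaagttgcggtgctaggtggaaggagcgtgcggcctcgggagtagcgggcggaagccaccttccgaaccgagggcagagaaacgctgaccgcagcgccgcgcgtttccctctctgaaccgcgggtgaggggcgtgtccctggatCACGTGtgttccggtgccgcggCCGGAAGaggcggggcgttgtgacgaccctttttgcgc
Utp18: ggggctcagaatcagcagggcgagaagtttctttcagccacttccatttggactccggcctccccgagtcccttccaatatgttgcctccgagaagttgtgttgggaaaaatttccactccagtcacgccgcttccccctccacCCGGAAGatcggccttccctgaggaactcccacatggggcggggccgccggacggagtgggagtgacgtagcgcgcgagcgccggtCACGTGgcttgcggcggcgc
Nhp2 held 1 ETS core 23 bases before the start and Gar1 held 1 at 43 bases. Nop2 and Utp18 held both motifs, and neither motif was in the Tsr1 window.

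The 40 genes took a larger share of all reads after irradiation in both genotypes. They held 0.629% (0.626 to 0.633, exact binomial interval) of recovered reads in steady-state wild type and 0.705% (0.701 to 0.708) in steady-state cKO. After irradiation the shares were 1.64% (1.63 to 1.64) in wild type and 1.33% (1.33 to 1.34) in cKO. Their median level was 30.6, 32.5, 78.1 and 53.1 FPKM, and their summed level was 2167, 2085, 6721 and 4156 FPKM. In 39 of 40 genes (97.5%) the irradiated wild-type library was the highest, the irradiated cKO library came next and both steady-state libraries lay below. The same order was found in 2564 of 7772 genes that reached 5 FPKM in any library (33.0%). The gene outside this order was Nop14.

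**Figure D1:**
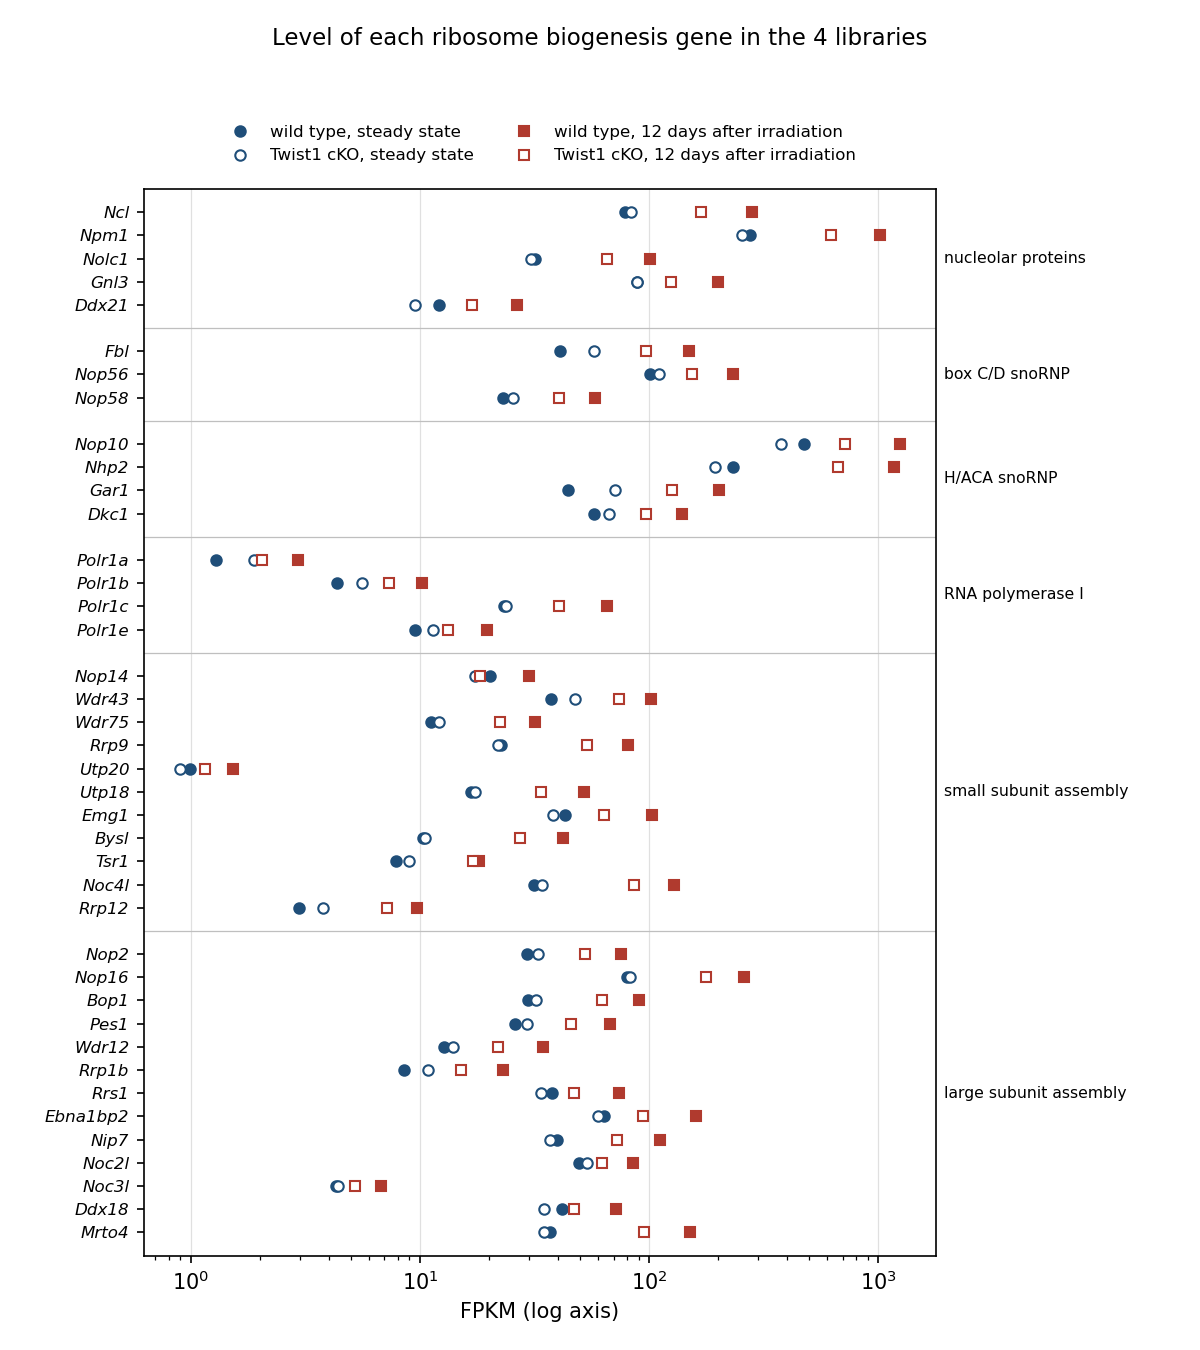
FPKM (log axis) of each of the 40 genes in the 4 libraries, grouped by role, 1 point per library; circles are steady state and squares irradiated, filled for wild type and open for cKO. The filled squares lie to the right of every other point in each row, from 1.53 FPKM for Utp20 to 1245 FPKM for Nop10.

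Of the abundant nucleolar proteins, all 5 were higher after irradiation in both genotypes. Npm1, nucleophosmin, a histone and ribosome chaperone, had 277, 255, 1014 and 620 FPKM, which made it the third highest of the 40 in the irradiated libraries. Ncl, nucleolin, an RNA-binding protein of rRNA transcription and processing, had 78.7, 83.6, 280 and 168 FPKM. Nolc1, a chaperone of snoRNPs, had 31.8, 30.6, 101 and 65.7 FPKM. The irradiated libraries of these 3 genes lay well apart from each other, while the steady-state pair lay close together. Gnl3, the GTPase nucleostemin, had 88.9, 88.2, 199 and 124 FPKM. Ddx21, an RNA helicase of rRNA transcription, had 12.1, 9.51, 26.5 and 17.0 FPKM with the lowest cKO to wild-type ratio of the 40 at steady state.

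The snoRNP proteins included Nop10, the highest of the 40 genes by FPKM in all 4 libraries. By recovered reads Ncl was the highest in all 4, with a gene model of 10188 bases against 1109 for Nop10. In the box C/D particle, Fbl, fibrillarin, the methyltransferase itself, had 40.9, 57.6, 149 and 97.3 FPKM. Its scaffold partners had 101, 110, 231 and 155 FPKM (Nop56) and 22.9, 25.5, 58.2 and 40.7 FPKM (Nop58). All 3 were higher in the cKO than in the wild-type library at steady state, Fbl by 1.41-fold, Nop56 by 1.09-fold and Nop58 by 1.11-fold. After irradiation all 3 were lower in the cKO library. In the H/ACA particle, which also forms part of telomerase, Nop10 had 477, 378, 1245 and 714 FPKM and Nhp2 had 232, 194, 1167 and 666 FPKM. Dkc1, dyskerin, the pseudouridine synthase, had 57.6, 67.0, 139 and 97.1 FPKM, and Gar1 had 44.2, 70.9, 201 and 126 FPKM. On the deposited scale the 2 small proteins Nop10 and Nhp2 were lower in the cKO library under both conditions. Gar1 and Dkc1 were higher in it at steady state and lower after irradiation. With equal summed FPKM as the scale, Nop10 and Nhp2 were no longer lower in cKO at steady state.

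Proteins that share a particle did not keep 1 ratio of transcripts across the libraries. Nop10 over Gar1 was 10.8 in the wild-type steady-state library and 5.33, 6.19 and 5.68 in the other three. Nhp2 over Dkc1 was 4.03, 2.89, 8.38 and 6.86 in the 4 libraries. Nop56 over Fbl was 2.47, 1.92, 1.55 and 1.59. By contrast Nop56 over Nop58 stayed between 3.80 and 4.41, and Bop1 over Wdr12 between 2.29 and 2.87. These ratios do not depend on the scale of a library, but their size depends on the model lengths of the genes.

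RNA polymerase I transcripts were low apart from 1 subunit. Polr1a, the largest subunit, had 1.29, 1.90, 2.94 and 2.05 FPKM and never reached the minimum of 5 FPKM. Polr1b, the other large catalytic subunit, had 4.35, 5.59, 10.2 and 7.30 FPKM. Polr1e, a peripheral subunit, had 9.50, 11.4, 19.6 and 13.2 FPKM. Polr1c, which RNA polymerase III shares, had 23.4, 23.7, 65.5 and 40.3 FPKM, so Polr1c over Polr1a was 18.2, 12.5, 22.2 and 19.7. At steady state all 4 had a higher FPKM in cKO, although the counting interval of Polr1c held 1.

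Small subunit assembly factors spanned a wide range, from 0.996 FPKM (Utp20) to 43.2 FPKM (Emg1) in the wild-type steady-state library. Among parts of the early processome, Wdr43 had 37.2, 47.3, 102 and 73.9 FPKM, Wdr75 had 11.2, 12.1, 31.8 and 22.3, and Utp18 had 16.8, 17.3, 52.1 and 33.7. Rrp9, a protein of the U3 snoRNP, had 22.6, 21.9, 80.5 and 53.8 FPKM. Utp20, a very large processome protein, had 0.996, 0.897, 1.53 and 1.15 FPKM. These 5 followed the common order of libraries with unequal folds. Nop14 had 20.2, 17.4, 29.9 and 18.2 FPKM, so its cKO library after irradiation lay below the wild-type one at steady state. Its binding partner Noc4l had 31.5, 34.2, 128 and 86.1 FPKM. Emg1, an rRNA methyltransferase, had 43.2, 38.2, 103 and 63.5 FPKM, and Bysl, bystin, had 10.3, 10.5, 42.2 and 27.4. Tsr1, which acts on late precursors, had 7.90, 8.92, 18.0 and 17.0 FPKM, with its 2 irradiated libraries nearly level. Rrp12, a factor of precursor export, had 2.95, 3.77, 9.72 and 7.21 FPKM.

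Large subunit assembly factors held 13 genes, from 4.29 FPKM (Noc3l) to 80.2 FPKM (Nop16) in the wild-type steady-state library. Bop1, Pes1 and Wdr12 form the PeBoW complex of rRNA processing. They had 29.7, 32.1, 90.2 and 62.6 FPKM (Bop1), 26.1, 29.3, 67.3 and 45.7 (Pes1) and 12.8, 14.0, 34.3 and 21.8 (Wdr12), all in the common order of libraries. In cKO the irradiation fold was 1.95 (1.85 to 2.06) for Bop1 and 1.56 for both Pes1 (1.48 to 1.65) and Wdr12 (1.5 to 1.62). Nop2, an rRNA methyltransferase, had 29.3, 32.9, 75.7 and 52.4 FPKM. Nop16 had 80.2, 82.9, 261 and 177, and Ebna1bp2 had 63.7, 59.8, 160.0 and 94.3. Mrto4, which holds the place of a stalk protein in the precursor, had 37.0, 35.0, 151 and 94.6 FPKM, the widest spread among the 13 as a ratio of highest to lowest. Nip7 had 39.6, 37.0, 112 and 72.7 FPKM, Rrs1 had 37.7, 33.9, 74.3 and 47.0, and Rrp1b had 8.51, 10.9, 23.1 and 15.1. The helicase Ddx18 had 41.6, 34.7, 71.6 and 47.1 FPKM. Noc2l had 49.3, 53.9, 85.3 and 62.4 FPKM and its partner Noc3l had 4.29, 4.40, 6.76 and 5.23, and both lay at the low end of the irradiation folds.

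The largest differences in these genes lay between the irradiated and the steady-state wild-type library. All 40 had a higher FPKM in the irradiated library, by 1.48-fold to 5.02-fold with a median of 2.65-fold, and every counting interval lay above 1. Over all 7418 genes kept, 4215 were higher, and the share with an interval above 1 is not given here. Of the 38 genes kept, 36 were at least 1.5-fold higher and 0 lower, where 34.9% of all 7418 genes kept were higher and 26.9% lower. Their median difference was 1.37, against 0.21 for all genes, and 34 remained at least 1.5-fold higher after centring on that median (26.7% of all genes, with 31.7% lower). At 2-fold, 32 of 38 were higher (18.9% of all genes). The highest folds were those of the H/ACA proteins Nhp2, 5.02-fold (4.89 to 5.15), and Gar1, 4.55-fold (4.33 to 4.79). Bysl (4.10-fold), Mrto4 (4.09-fold) and Noc4l (4.06-fold) came next. The lowest were Nop14, 1.48-fold (1.38 to 1.59), and Utp20, 1.53-fold (1.29 to 1.83), which was not kept. Npm1 was 3.66-fold (3.60 to 3.72), Fbl 3.64-fold (3.52 to 3.77) and Ncl 3.56-fold (3.50 to 3.61) higher. Dkc1 was 2.42-fold (2.34 to 2.49), Polr1b 2.35-fold (2.14 to 2.58) and Polr1a 2.29-fold (2.02 to 2.59) higher. By role, the median difference was 1.77 for the H/ACA proteins, 1.63 for the nucleolar proteins, 1.43 for small subunit factors, 1.34 for large subunit factors, 1.31 for box C/D proteins and 1.07 for RNA polymerase I.

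The cKO cells showed the same direction with lower folds on the deposited scale. All 40 genes were higher in the irradiated cKO library than in the steady-state one, by 1.05-fold to 3.44-fold with a median of 1.67-fold, and under 1 scaling, equal summed FPKM, Nop14 was lower. Over all 7393 genes kept, 3126 were higher. Of 38 genes kept, 27 were at least 1.5-fold higher and 0 lower, where 20.8% of all 7393 genes were higher and 34.6% lower, and after centring 33 were higher (28.0% of all genes). Their median difference was 0.74, against −0.20 for all genes. At 2-fold, 8 of 38 were higher (10.3% of all genes). The median fold of the 40 genes stayed lower in cKO than in wild type under the 6 other scalings, but the gap depended on the scale. It was 1.71 against 2.03 without the 50 most abundant genes and 1.70 against 1.98 without immunoglobulin and haemoglobin genes. Nhp2 was again the highest, 3.44-fold (3.34 to 3.54), followed by Mrto4, 2.71-fold (2.58 to 2.84). The intervals of Nop14, 1.05-fold (0.966 to 1.14), and Polr1a, 1.08-fold (0.960 to 1.22), held 1. Npm1 was 2.43-fold (2.39 to 2.48), Ncl 2.01-fold (1.98 to 2.05) and Fbl 1.69-fold (1.63 to 1.74) higher, while Dkc1 was 1.45-fold (1.41 to 1.5) and Polr1b 1.31-fold (1.19 to 1.43) higher. Small subunit factors had a median difference of 0.85 with 9 of 10 at least 1.5-fold higher, large subunit factors 0.62 with 8 of 13, and RNA polymerase I 0.33 with 1 of 3. Across the 38 genes kept for both irradiation comparisons, Spearman's rho of the 2 irradiation differences was 0.87, the same as over all 7039 genes. The points share the 4 libraries and their depths.

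**Figure D2:**
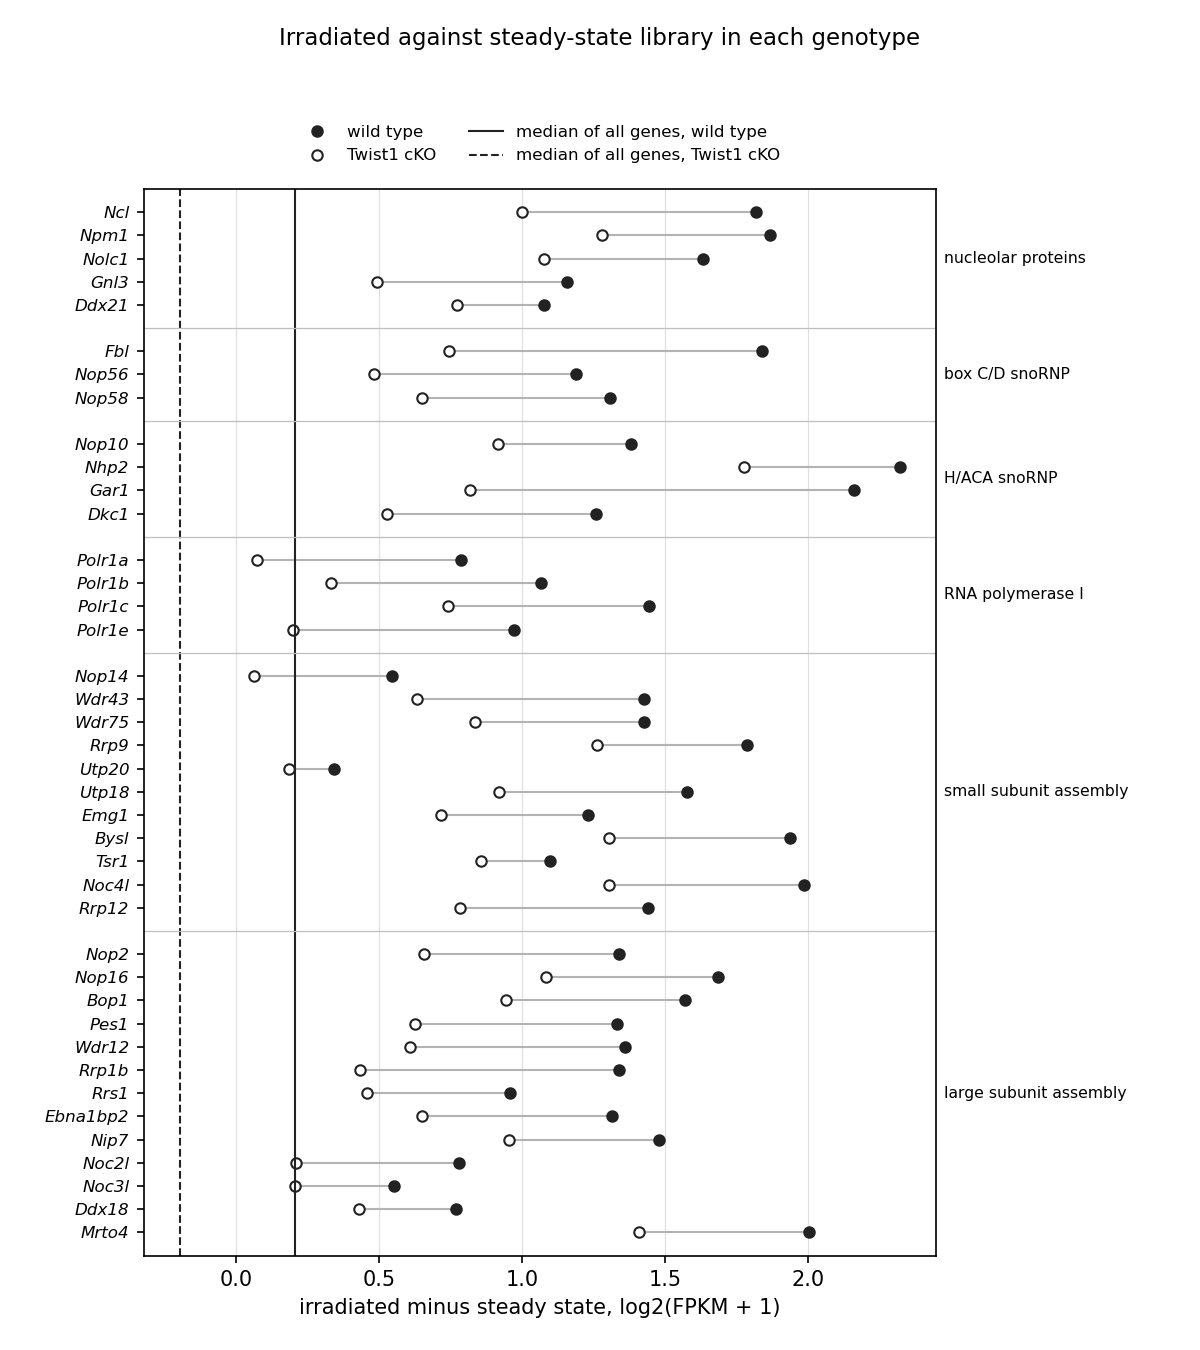
Difference between the irradiated and the steady-state library in log2(FPKM + 1) for each gene, filled for wild type and open for cKO, joined by a line; the solid and dashed vertical lines are the medians of all genes, 0.21 and −0.20. In every row the open point lies left of the filled one, and all points of both genotypes lie right of 0.

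At steady state the genotypes differed little in these genes. The cKO library was the higher in 25 genes and the lower in 15, with folds from 0.788 to 1.60 and a median of 1.05. Over all 7157 genes kept, it was the higher in 3686. Of 36 genes kept, 1 was at least 1.5-fold higher and 0 lower, where 1.77% of all 7157 genes were higher and 5.51% lower, and their median difference was 0.07 against 0.01. After centring the counts were the same 1 and 0 (1.72% and 5.63% of all genes). Counting intervals lay above 1 for 20 of the 40 genes, below 1 for 10 and held 1 for 10. The share of all genes with such intervals is not given here, so this count does not set the list apart. Gar1 was the gene past 1.5-fold, 1.60-fold (1.52 to 1.70) higher. Polr1a was 1.47-fold (1.29 to 1.68), Fbl 1.41-fold (1.36 to 1.47), Polr1b 1.28-fold (1.16 to 1.42) and Dkc1 1.16-fold (1.12 to 1.20) higher. Ddx21 was 1.27-fold (1.17 to 1.37) and Nop10 1.26-fold (1.23 to 1.29) lower, although Nop10 was not lower with equal summed FPKM as the scale. Ncl was 1.06-fold (1.04 to 1.08) higher and Npm1 1.09-fold (1.07 to 1.11) lower, and Npm1 was instead higher with recovered read totals or with equal summed FPKM as the scale. The number of genes higher in cKO was 25 to 26 with 4 of the 6 other scalings tried, 32 with recovered read totals and 39 with equal summed FPKM.

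After irradiation all 40 genes were lower in cKO than in wild type on the deposited scale, by 1.06-fold to 1.75-fold with a median of 1.53-fold. Over all 6348 genes kept, 5554 were lower. This comparison depended on the scale. Of 38 genes kept, 20 were at least 1.5-fold lower and 0 higher, where 24.6% of all 6348 genes were lower and 7.42% higher. The median difference was −0.60, and that of all genes was itself −0.45. After centring on that median, 0 genes were lower and 0 higher, where 0.977% of all genes were lower and 10.7% higher, although 33 of 38 lay below it. All 5 nucleolar proteins, 3 of 4 H/ACA proteins, 1 of 3 box C/D proteins, 1 of 3 RNA polymerase I subunits kept, 4 of 10 small subunit factors and 6 of 13 large subunit factors were among the 20. The most distant were Nhp2, 1.75-fold (1.72 to 1.79) lower, and Nop10, 1.74-fold (1.71 to 1.78) lower. Ncl was 1.67-fold (1.65 to 1.69), Npm1 1.64-fold (1.61 to 1.66), Fbl 1.53-fold (1.49 to 1.57) and Dkc1 1.43-fold (1.40 to 1.47) lower, with Polr1a at 1.44-fold (1.29 to 1.61) and Polr1b at 1.40-fold (1.29 to 1.52). Tsr1 lay nearest to 1 on this scale, at 1.06-fold (0.988 to 1.14) lower, and it was higher in cKO under 5 of the 6 other scalings. Utp20 was 1.32-fold (1.11 to 1.58) lower.

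Leaving out the 50 most abundant genes brought the median of the 40 genes in this comparison to −0.15 and that of all genes to −0.014, with 34 of 40 genes still lower in cKO. Leaving out the 278 immunoglobulin and haemoglobin genes brought the medians to −0.12 and 0.0048, with 33 of 40 lower. In both cases 0 genes of the list were at least 1.5-fold lower, where 0.889% and 0.502% of all genes were. Wdr43, Utp20, Tsr1, Rrp12, Noc2l and Noc3l were then higher in cKO, and Polr1b too in the second case. Immunoglobulin and haemoglobin levels differed between these 2 libraries: Igkc, an immunoglobulin light chain, had 20479 FPKM in irradiated wild type and 48437 in irradiated cKO.

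**Figure D3:**
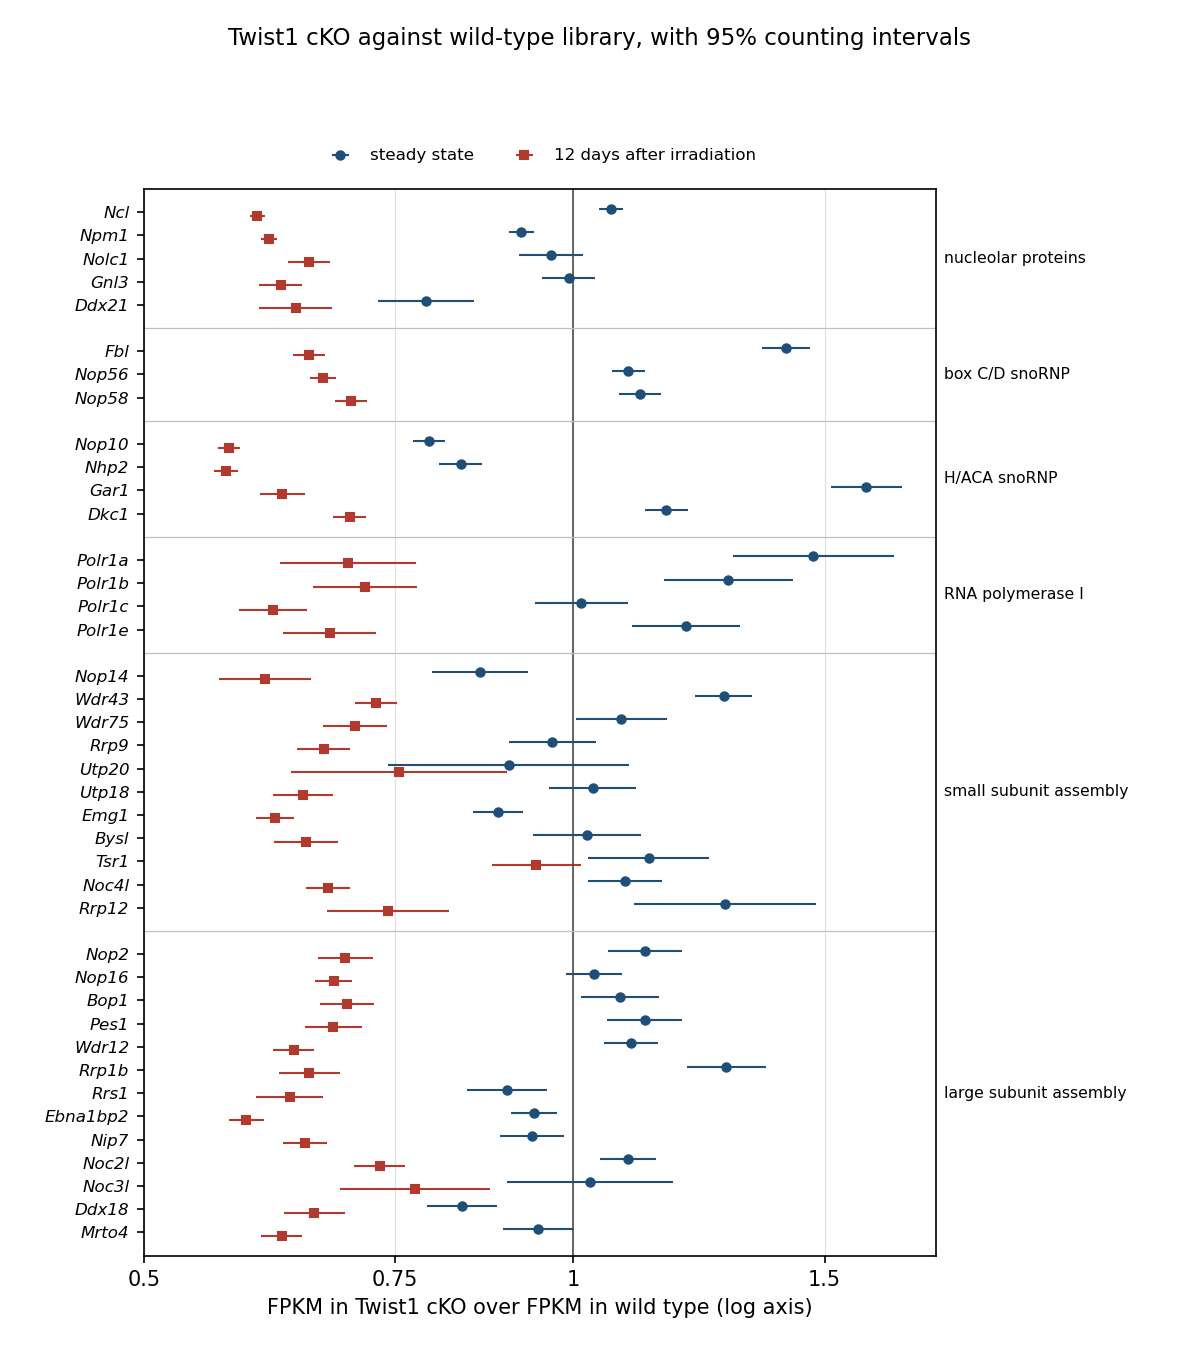
Ratio of FPKM in the cKO library to the wild-type library for each gene (log axis), circles at steady state and squares after irradiation, with exact 95% counting intervals as bars; the vertical line marks 1. All squares lie left of 1, from 0.571 for Nhp2 to 0.942 for Tsr1, while the circles lie on both sides of it. After irradiation 5554 of all 6348 genes kept were lower in cKO.

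**Figure D4:**
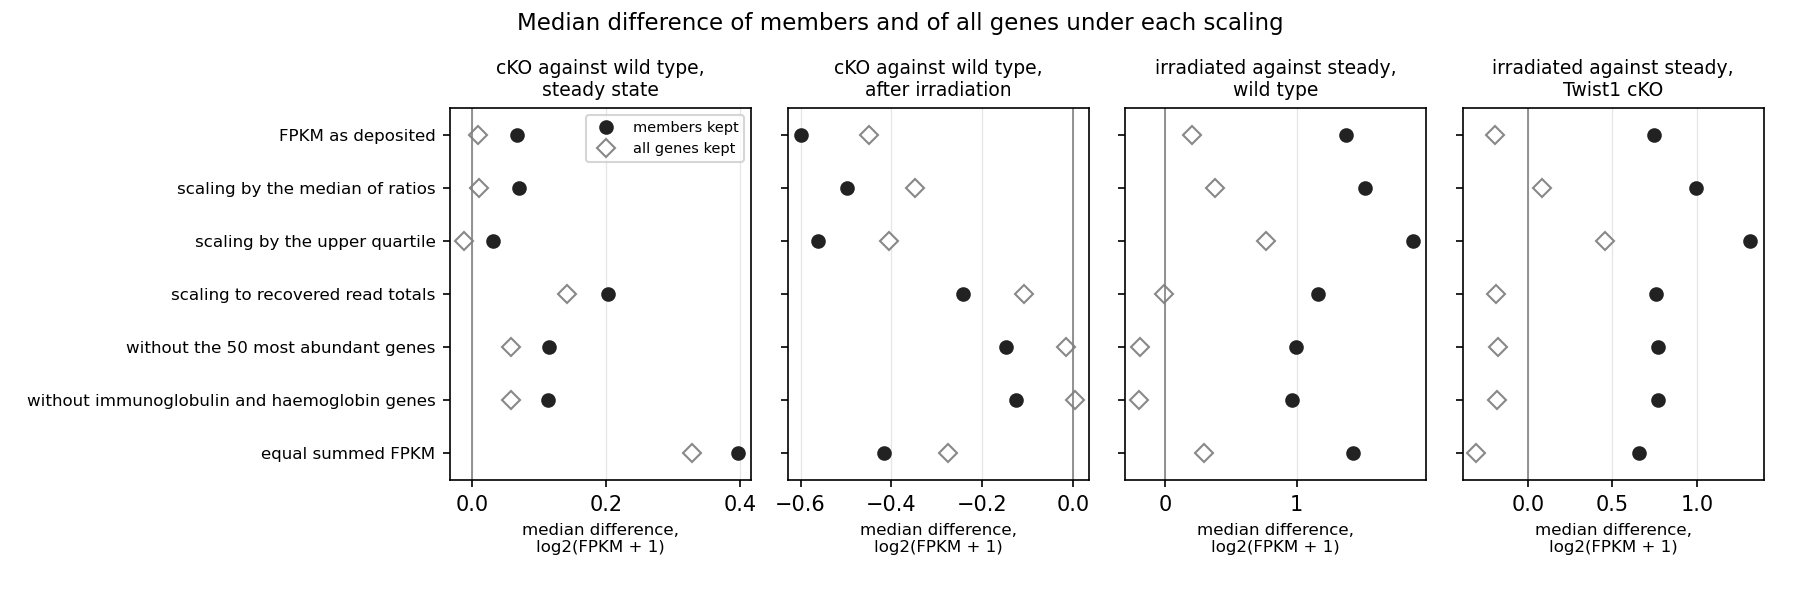
Median difference in log2(FPKM + 1) of the genes of the list kept (filled circles) and of all genes kept (open diamonds) in each comparison, with the deposited FPKM and with 6 other scalings in rows. Filled circles stay right of 0 in both irradiation comparisons, and after irradiation the genotype median moves from −0.60 to −0.12 along with that of all genes.

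The irradiation difference was smaller in cKO than in wild type in 40 of 40 genes on the deposited scale, and in 4979 of 5733 genes kept throughout (86.8%). The difference of the 2 genotype differences had a median of −0.64 over 36 genes, against −0.44 over all genes, and 24 of 36 were at least 1.5-fold lower (24.7% of all genes). After centring on the median of all genes, 2 of 36 were lower (1.4% of all genes). It was most negative for Gar1 (−1.34), Fbl (−1.10) and Rrp1b (−0.91) and nearest to 0 for Tsr1 (−0.24) among the genes kept. Under 4 of the 6 other scalings the count stayed at 40 of 40, and it was 35 of 40 without the 50 most abundant genes and without immunoglobulin and haemoglobin genes. Between the 36 genes, Spearman's rho of the genotype difference at steady state with that after irradiation was 0.65, and 0.16 over all 5733 genes. The points of each pair share depth, gene length and base composition, and no p-value is given.

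Gene length and level went with the differences to different degrees. In this paragraph all genes are the protein-coding genes kept, 5574 to 6542 per comparison. Level is the mean FPKM of the 4 libraries, so it holds the values that make each difference. Model lengths found from the recovered reads ran from 1109 bases (Nop10) to 11955 bases (Wdr12). Spearman's rho with length over the genes kept was 0.38 for the genotype difference at steady state (0.33 over all genes) and 0.35 after irradiation (0.13 over all genes). For the irradiation difference it was −0.23 in wild type and −0.26 in cKO (−0.05 and −0.14 over all genes). With level, rho was −0.23 for the genotype difference at steady state and −0.55 after irradiation (−0.34 and −0.35 over all genes). For the irradiation difference it was 0.44 in wild type and 0.39 in cKO (0.39 and 0.42 over all genes). Nop10 and Nhp2, the shortest of the 40 gene models with 1109 and 1146 bases, were also among the lowest genotype ratios. The part of length or RNA quality in these values was not tested. The share of genes above 0 FPKM was 73.1%, 77.0%, 79.2% and 88.9% in the 4 libraries.

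Some of these genes carry snoRNA genes or overlap other genes, and the counting rules there, with or without strand, are not given in the sources used here. Annotated snoRNA genes lay inside 7 of the 40 genes (17.5%: Ncl, Gnl3, Nop56, Nop58, Dkc1, Wdr43 and Tsr1), 19 snoRNA genes in all, against 159 of 6760 protein-coding genes with at least 5 FPKM (2.35%). Tsr1 overlapped Srr by 5314 bases, the longest overlap found, and Srr, serine racemase, had 1.26, 1.31, 0.802 and 0.458 FPKM. Bop1 overlapped Scx by 2058 bases, and Scx had 0.812, 0.872, 0 and 0.0375 FPKM. Values of overlapping genes are uncertain where reads could be split between them. Npm1 has processed copies elsewhere in the genome, so its reads may be shared with them.

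Other genes of the pathway had medians of the same sign, with smaller irradiation differences. Of 135 such genes found, none of them in the list of 40, 125 were kept in the wild-type irradiation comparison. Of these, 94 were at least 1.5-fold higher (34.9% of all genes) and 0 lower, with a median of 0.95. After centring 77 were higher and 0 lower (26.7% and 31.7% of all genes). In cKO 36 of 121 were higher and 4 lower, with a median of 0.38, where 20.8% of all genes were higher and 34.6% lower. After centring these counts were 59 and 0 (28.0% of all genes higher and 28.0% lower). At steady state 0 of 117 differed by 1.5-fold between genotypes (median 0.05), where 1.77% of all genes were higher and 5.51% lower. After irradiation 43 of 124 were lower in cKO and 0 higher (median −0.55), where 24.6% of all genes were lower with a median of −0.45. After centring 0 were lower (0.977% of all genes). In wild type the highest irradiation folds were those of Wdr55 (4.33-fold), Wdr18 (3.94-fold) and Ruvbl2, an ATPase of snoRNP assembly (3.80-fold). Ttf1, the transcription termination factor of RNA polymerase I, was 1.35-fold lower, the kinase Riok3 1.17-fold lower and the polymerase subunit Znrd1 1.15-fold lower. In cKO Rpf2 (2.64-fold), Pno1 (2.62-fold) and Polr2l (2.62-fold) were highest, and Nop53 (1.72-fold), Taf1b (1.70-fold) and Ttf1 (1.73-fold) lowest. Between genotypes after irradiation, the nuclear exosome proteins Exosc8 and Exosc1 were 1.75-fold and 1.69-fold lower in cKO and Imp3, a U3 snoRNP protein, 1.72-fold, while Nol10 (1.03-fold lower), Riok3 (1.09-fold) and Taf1a (1.17-fold) were nearest to 1. At steady state the range ran from Polr2f (1.33-fold), Polr2l (1.32-fold) and Imp3 (1.26-fold) lower in cKO to Sdad1 (1.29-fold), Rrn3, an initiation factor of RNA polymerase I (1.23-fold), and Wdr55 (1.22-fold) higher.

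Cytosolic ribosomal proteins, the parts that these factors assemble, had a lower genotype median at steady state. Their median genotype difference at steady state was −0.35 over 77 genes, against 0.07 for the 40 factors. By 1.5-fold 3 were lower and 0 higher (5.51% and 1.77% of all genes). After irradiation the median genotype difference was −0.73, with 77 of 78 lower (24.6% of all genes, whose median was −0.45). After centring 0 were lower and 1 higher (0.977% and 10.7% of all genes). Their irradiation difference had a median of 0.92 in wild type (67 of 78 higher) and 0.57 in cKO (36 of 77 higher), against 1.37 and 0.74 for the 40 factors. Transfer RNA synthetases, 20 genes, had 18 higher in wild type (median 1.14), 12 in cKO (0.66), and genotype medians of 0.01 at steady state and −0.53 after irradiation. Cell division genes had 17 of 18 higher in wild type (median 1.71) and 14 of 18 in cKO (1.11). Over all genes, 34.9% were higher in wild type and 20.8% in cKO. Between genotypes after irradiation, 11 of 18 cell division genes and 2 of 20 synthetases were lower in cKO (24.6% of all genes), and 0 of either after centring (0.977% of all genes). Myc, whose protein is known to drive many ribosome biogenesis genes, did not follow their order of libraries, with 172, 197, 192 and 98.1 FPKM. It was 1.12-fold (1.09 to 1.15) higher after irradiation in wild type and 2.01-fold (1.95 to 2.07) lower in cKO, and 1.96-fold (1.90 to 2.02) lower in cKO than in wild type after irradiation. The wild-type irradiation difference of Myc was 0.16, below the median of all genes (0.21), and its direction turned with the scale, to −0.047 with recovered read totals, −0.22 without the 50 most abundant genes and −0.25 without immunoglobulin and haemoglobin genes. Its other differences kept their direction under the 6 other scalings. At steady state it was 1.15-fold (1.12 to 1.18) higher in cKO. Its relative Mycn had 39.2, 38.9, 0.0960 and 0.142 FPKM.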

How the data were processed

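RNA was measured in 4 libraries of sorted mouse LT-HSCs, 1 per group. The deposited values, made by the authors, are FPKM per gene, 1 table per library with 30409 Ensembl gene identifiers. Per the submitters' processing notes, the whole series used build mm10 with HOMER, MACS2 2.1.0, BWA 0.7.12-r1039 and Bowtie. The tools behind the FPKM and the counting rules are not given in the sources used here. Symbols were joined to 30231 identifiers.

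Differences were taken in log2(FPKM + 1), a pseudocount of 1. A gene was kept if the higher of its 2 values reached 5 FPKM, and kept genes 1.5-fold apart or more were counted, on the deposited scale and after centring on the median of all genes kept. Reads were recovered as the whole numbers in the ratio of a gene's 4 values, given 1 constant per library (tolerance 0.0001 reads), and multiplied where the gene length was not whole. This gave reads for 30409 of 30409 genes, where a gene above 0 in only 1 library started from 1 read, and 2 genes had no whole length. Lengths equalled the annotation for 12 of 13 mitochondrial genes. The library sizes were set from the median over these 13 genes, so this match is not an independent check. Recovered reads gave exact Poisson intervals for levels and exact binomial intervals for ratios and shares at 95%. These cover counting error only. The steps were tested on simulated data. Python 3.11.15, pandas 2.3.3, numpy 2.4.6 and scipy 1.17.1 were used. The members and lists were chosen with earlier results of these data known. All 40 genes are given. Folds with intervals were set for the 2 highest and 2 lowest genes of each comparison and for Ncl, Npm1, Fbl, Dkc1, Polr1a and Polr1b, and the 3 highest and 3 lowest other pathway genes are named. Myc and Twist1 are given throughout. Other genes named were chosen after their values were seen. With 1 library per group there was no test, and no library could be left out. Each genotype comparison shares a library with each irradiation comparison. Alternatives were other pseudocounts (0.1 and 5), minimum levels (1, 20 and none), 6 scalings and a 2-fold threshold. Promoters and positions are from RefSeq (GRCm38.p6).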

Additional observations from a re-analysis of the deposited data

Results flagged for a closer look

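Gar1 stood out because its genotype difference had opposite directions under the 2 conditions, each at least 1.5-fold on the deposited scale. It was 0.67 (cKO minus wild type, in log2 of FPKM + 1) at steady state, with 44.2 FPKM in wild type and 70.9 in cKO, and −0.67 after irradiation, with 201 and 126 FPKM. The second value was −0.22 after centring on all genes, −0.64 with scaling by the upper quartile and between −0.57 and −0.19, under 1.5-fold, with the 5 other scalings, while the first stayed past 1.5-fold under all 6. The difference between the conditions was not tested, since each group held 1 library. Behind these values were 1972 and 3067 reads at steady state and 7636 and 5055 after irradiation.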

How the results depend on the processing

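Of 418 values of named genes under the alternatives, 261 moved by less than their counting interval, 157 moved by more and 0 changed direction among those at least 1.5-fold apart. The 38 genes kept stayed above the median of all genes in both irradiation comparisons under the 6 other scalings. Values that moved are listed by comparison. For cKO against wild type after irradiation, the median of −0.60 became −0.55 (pseudocount 5), −0.50 (median of ratios), −0.24 (recovered read totals), −0.15 (without the 50 most abundant genes), −0.12 (without immunoglobulin and haemoglobin genes) and −0.42 (equal summed FPKM). The 20 genes at least 1.5-fold lower became 6 (median of ratios), 13 (upper quartile), 0 (read totals, without the 50 most abundant genes, without immunoglobulin and haemoglobin genes, and at 2-fold) and 2 (equal summed FPKM). After centring, 0 genes of the list became 20 with no minimum, where the median of all 30403 genes was 0 and centring changed no value. With no minimum 6.42% of all genes were lower. Less the median of all genes, −0.15 became −0.19 (pseudocount 5), −0.28 (minimum 1 FPKM), −0.085 (20 FPKM) and −0.59 (none), and the 5 genes above that median became 2 (1 FPKM), 0 (none) and 3 (upper quartile). For irradiation in wild type, the median of 1.37 became 1.23 (pseudocount 5), 1.88 (upper quartile), 1.16 (read totals), 0.99 (without the 50 most abundant genes) and 0.96 (without immunoglobulin and haemoglobin genes), and less all genes 1.17 became 1.41 (1 FPKM) and 0.85 (20 FPKM). For irradiation in cKO, the median of 0.74 became 0.99 (median of ratios) and 1.31 (upper quartile), and less all genes 0.94 became 0.79 (pseudocount 5), 0.66 (20 FPKM) and 0.72 (none). The 27 genes higher became 8 at 2-fold (10.3% of all genes), and the 33 after centring became 18 (20 FPKM) and 16 (2-fold). For these 2 centred counts the share of all genes is not given here. At steady state, the median of 0.07 became 0.20 (read totals) and 0.40 (equal summed FPKM). The 1 gene higher became 2 and 4 under these scalings (2.92% and 8.95% of all genes). At 2-fold it became 0 (0.643% of all genes), as did the 1 after centring. The difference of the genotype differences, −0.64, became −0.55 (median of ratios), −0.42 (read totals), −0.24 (without the 50 most abundant genes), −0.21 (without immunoglobulin and haemoglobin genes) and −0.78 (equal summed FPKM), and less all genes −0.20 became −0.29 (1 FPKM) and −0.65 (none). Apart from the median of 0 with no minimum, the cause of these moves was not tested. Scaling moved the median of all genes in the wild-type irradiation comparison between −0.20 and 0.77, and the share of higher among genes at least 1.5-fold apart between 34.5% and 77.9% (56.4% as deposited). After irradiation the genotype median of all genes lay between −0.45 and 0.0048 and that share between 23.2% and 95.5%. At steady state the median lay between −0.01 and 0.33, with shares of 22.6% to 75.1%, and for irradiation in cKO between −0.31 and 0.46, with 31.2% to 70.9%. Centring, the median less all genes, the difference of differences, and the scalings of Myc, Gar1 and Tsr1 were added after seeing the data. No paired analysis was possible because each group held 1 library and the labels give no replicate numbers. Counting limits the precision most for Utp20 (200 to 299 reads) and Polr1a (398 to 774).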
